A study of Mus musculus with 4 samples.

Results

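The miRNAs described here are miR-674, miR-1981 and miR-5099 of the mouse, which carry rodent or little-conserved names and were chosen by their read level in these libraries. The rule named 5 mature miRNAs, of which 4 were among the 603 names in the deposited files: mmu-miR-674-3p, mmu-miR-674-5p, mmu-miR-1981-5p and mmu-miR-5099. The fifth, mmu-miR-1981-3p, was not listed, so nothing is given for it. The small RNA came from exosomes, vesicles that cells release, of BV2 cells, an immortalized mouse microglial line. The control group (labelled NC, 2 libraries) stayed at 37 °C for 2 h, and the HS group (2 libraries) was heated to 42 °C for 2 h and rewarmed at 37 °C for 12 h. The 12 h are from the general account of cell culture. For the sequenced exosomes an earlier harvest after heating is stated, and which time holds is not settled here. The exosomes were pelleted from culture medium by ultracentrifugation, and all cells came from 1 purchased line. The labels do not say that replicates came from separate cultures, so the tests measure the spread between these libraries, which may be technical.

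A miRNA is cut from a hairpin precursor whose 5p and 3p arms pair with each other. Usually Drosha frees the hairpin in the nucleus and Dicer removes the loop in the cytoplasm, after which 1 arm is kept by an Argonaute protein and the other is mostly degraded. The bases from 2 to 8 of the mature miRNA, the seed, choose its targets. A mirtron is an exception to the first step, because its hairpin is a short intron that splicing sets free without Drosha.

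The RefSeq sequences used held none for the mature miR-5099, so its sequence is not shown and its seed was not compared. The mature sequences of the other listed members are shown because they define what was counted, with the seed in capitals (RefSeq, GRCm38.p6, 5′ to 3′).
miR-674-3p: cACAGCUCccaucucagaacaa
miR-674-5p: gCACUGAGaugggaguggugua
miR-1981-5p: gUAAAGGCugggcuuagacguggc

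The seeds of miR-674-3p and miR-1981-5p were shared with 0 other mature miRNAs of the RefSeq table. The seed of miR-674-5p was shared with miR-1947-3p and miR-3473d, neither of which was listed in these libraries. Each of the 3 mature sequences occurred in 1 hairpin of the table, and 0 other listed names had the same reads as any of the 4 members in all libraries. MiR-674-3p begins with C, and miR-674-5p and miR-1981-5p begin with G. Of 131 miRNAs with at least 100 reads in all and a sequence in the table, 66 (50.4%) began with U, 29 with A, 26 with C and 10 with G. MiR-1981-5p is 24 bases long, against 22 for both arms of miR-674.

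The hairpins show where the arms lie, with the annotated arms of miR-674 and miR-1981 in capitals, and that of miR-5099 is printed in lower case throughout.
Mir674, chr2:117185127-117185226, plus strand: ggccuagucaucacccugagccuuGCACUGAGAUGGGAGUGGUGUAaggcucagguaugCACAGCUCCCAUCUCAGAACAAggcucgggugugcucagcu
Mir1981, chr1:184822407-184822488, minus strand: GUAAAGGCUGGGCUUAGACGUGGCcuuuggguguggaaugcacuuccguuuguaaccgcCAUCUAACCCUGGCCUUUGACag
Mir5099, chr12:36816205-36816278, plus strand: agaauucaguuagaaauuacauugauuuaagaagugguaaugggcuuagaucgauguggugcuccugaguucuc

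The 3 loci have different surroundings in GENCODE M21, which places the hairpins at the same GRCm38 coordinates. Mir674 overlaps no other annotated gene and starts 2848 bases after the end of Spred1, which lies on the same strand and encodes an inhibitor of Ras signalling. Mir5099 overlaps no other gene either, and its nearest protein-coding genes, Ispd and Meox2, are 126702 and 292262 bases away. Mir1981 lies within Marc2, a gene for a mitochondrial reducing enzyme, on the same strand. Its 82 bases are exactly the intron between exons 5 and 6 of Marc2-201, and the same intron is annotated in 6 Marc2 transcripts. The hairpin opens with GU and closes with AG, the bases at the ends of most introns, and the 5p arm starts at its first base. Predicted with RNAfold, the minimum free energy was -60.90 kcal/mol for the Mir674 hairpin (100 bases, 80 of them paired), -30.30 for Mir1981 (56 paired) and -26.60 for Mir5099 (74 bases, 58 paired).

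The libraries held 42091 to 121503 reads on the 603 listed miRNAs, and HS replicate 1 was the shallowest with reads on 228 names, against 420 to 444 in the others. Normalized counts are these reads divided by the library's size factor. A count of 0 allows up to 3 reads, or 0.00247% to 0.00713% of a library, for counting error only. HS replicate 1 stood apart in its makeup: its Spearman correlation with the other libraries over 376 miRNAs was 0.599 to 0.680, against 0.787 to 0.814 among the other 3. Myeloid and microglial miRNAs (6 of 6 listed) held 1.68% of its reads against 2.96% to 6.76% elsewhere, and stromal and endothelial miRNAs (5 of 5 listed) 0.0166% against 1.04% to 3.59%, with miR-199a-3p and miR-145a-5p at 0 reads. Red cell and liver miRNAs (4 of 4 listed) held 0.0953% to 0.325% of the reads of the 4 libraries. The myeloid miRNAs miR-223-3p and miR-142a-3p had at most 5 and 17 reads in any library, whereas miR-146a-5p had 533 to 2662. MiR-21a-5p, also of this set, had 4666 and 1124 reads in control replicates 1 and 2, against 114 and 1230 in HS replicates 1 and 2.

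MiR-674-3p was the most abundant of the members in every library. It was read 1922 and 2759 times in the control group (replicates 1 and 2) and 1828 and 2434 times in the HS group. These made up 1.99%, 2.27%, 4.34% and 2.14% of the listed reads in that order, with 95% Wilson intervals no wider than 4.15% to 4.54%. The share was thus close in 3 libraries and higher in HS replicate 1, and HS replicate 2 lay between the control libraries. Its rank by normalized count was 18, 10, 5 and 14. Its closest neighbours by mean level were the conserved miR-128-3p above it and miR-151-3p below it.

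MiR-1981-5p was read 576 and 1078 times in control exosomes and 996 and 1454 times in HS exosomes. Its shares were 0.597% and 0.887% in the control group and 2.37% and 1.28% in the HS group. Alone among the 4 members, it had HS libraries that lay above the control libraries without overlap, in normalized counts (481 and 731 against 2408 and 965) as well as in shares. In normalized counts the same held for 47 of the 376 miRNAs with at least 10 reads (12.5%), and for 122 the HS libraries lay below without overlap. It held for 20 of the 86 other tested names numbered 1000 or more. No such count over all names was made for shares. The ranks were 37 and 35 in the control group and 13 and 22 in the HS group.

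MiR-5099 was read 500 and 1434 times in control exosomes and 1291 and 1087 times in HS exosomes. Its shares were 0.518%, 1.18%, 3.07% and 0.954%, and its ranks 41, 25, 10 and 31, in the same order. The control libraries differed 2.33-fold in normalized counts, and HS replicate 2 again lay between them. The value of HS replicate 1 was 4.33-fold that of HS replicate 2, a wider gap than for miR-674-3p (2.74-fold) or miR-1981-5p (2.50-fold).

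**Figure D1:**
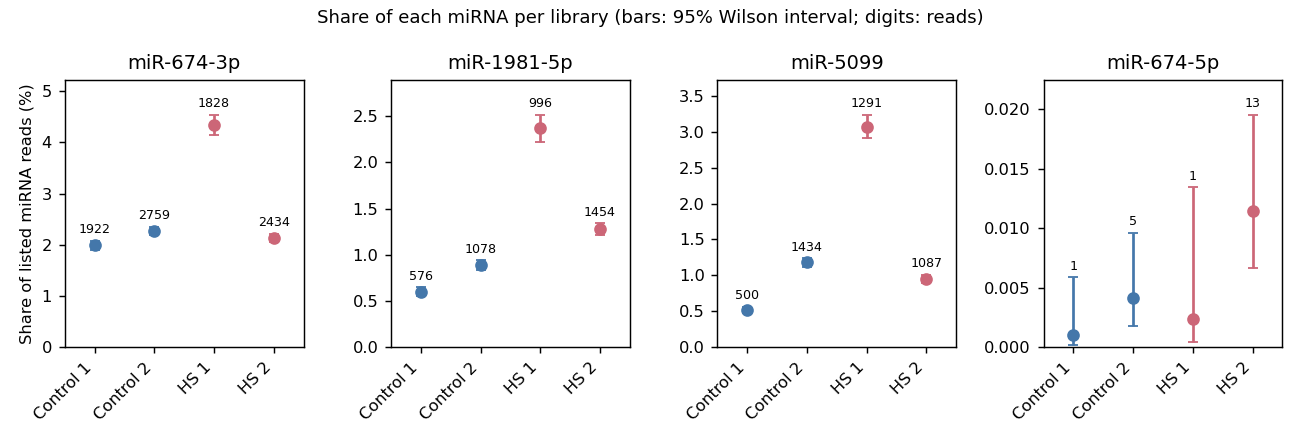
Share of the listed miRNA reads (percent, y axis, each panel with its own scale from 0) of the 4 members in control (blue) and HS (red) libraries, with 95% Wilson intervals as bars and the reads as digits. HS replicate 1 is highest for miR-674-3p (4.34%), miR-1981-5p (2.37%) and miR-5099 (3.07%), and miR-674-5p has 13 reads at most.

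The 3 abundant members together held 3.11% and 4.34% of the listed reads in control exosomes, against 9.78% and 4.37% in HS replicates 1 and 2. The order of their read counts was stable only at the top. MiR-674-3p exceeded miR-1981-5p 1.67- to 3.34-fold and miR-5099 1.42- to 3.84-fold over the 4 libraries. The ratio of miR-5099 to miR-1981-5p was 0.868 and 1.33 in control exosomes, against 1.30 and 0.748 in HS exosomes, so the order of this pair changed within each group. These are read counts, which are not corrected for length or for the ease of ligating each end.

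**Figure D2:**
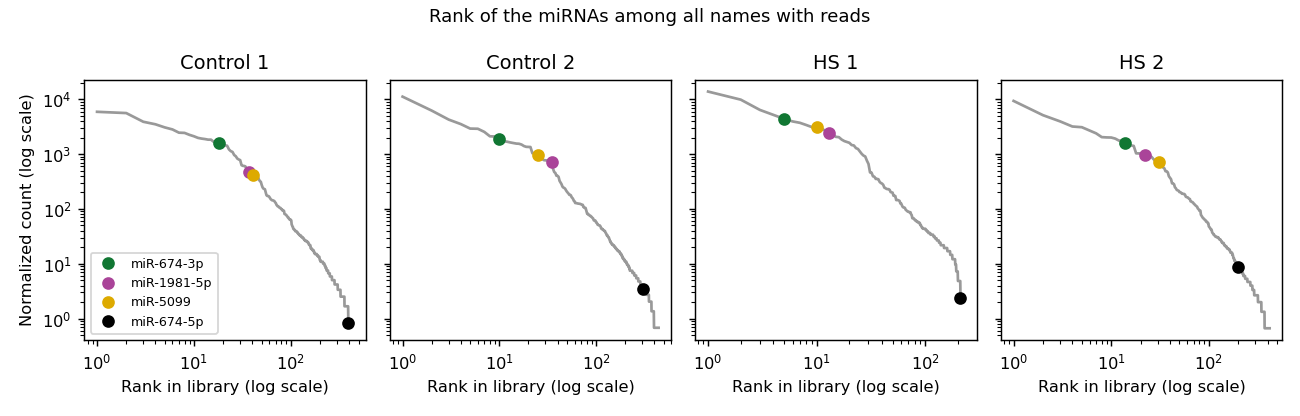
Normalized count (y axis, log scale) against rank (x axis, log scale) of all miRNA names with reads in each library, with the 4 members as coloured points. MiR-674-3p ranks 5 to 18, miR-1981-5p 13 to 37 and miR-5099 10 to 41, whereas miR-674-5p ranks 391 of 439, 306 of 444, 211 of 228 and 198 of 420 names with reads in control replicates 1 and 2 and HS replicates 1 and 2.

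The arms of miR-674 were read very unequally. MiR-674-5p was read 1 and 5 times in control exosomes and 1 and 13 times in HS exosomes. The 5p arm was 0.0520% of the reads of the pair in control replicate 1 (95% Wilson interval 0.00918% to 0.294%) and 0.181% in control replicate 2 (0.0773% to 0.423%). It was 0.0547% in HS replicate 1 (0.00965% to 0.309%) and 0.531% in HS replicate 2 (0.311% to 0.907%). Such intervals hold only the error of counting, and PCR copies of 1 molecule count as separate reads. Over all libraries the 3p arm had 8943 reads and the 5p arm 20, a 447-fold difference. Among the 70 miRNAs with at least 10 reads on each arm this was the third largest imbalance in size, after miR-27b and miR-151. The order holds for these 70 alone, since of the 134 listed pairs those with fewer than 10 reads on an arm were left out. MiR-674 itself passed this minimum mainly through the 13 5p reads of HS replicate 2. Of the 70, 31 had more 5p reads and 37 more 3p reads, and the median imbalance was 2.55 on the log2 scale against 8.73 for miR-674. MiR-423, whose arms are both abundant, had 70.8% to 78.1% of its reads on the 5p arm.

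The arm ratio of miR-674, log2((5p reads + 1)/(3p reads + 1)), averaged -9.38 in the control group and -8.64 in the HS group. The difference of 0.74 (standard error 1.31, 95% interval -2.52 to 3.999, adjusted p = 0.867 from limma over the 70 pairs) was not larger than the spread between replicates. The study called changes over 2-fold by p without naming an adjustment. The unadjusted p is used for this here. On that reading, 9 of the 70 pairs (12.9%) were altered and miR-674 was not. No pair had an adjusted p under 0.05 in limma, where 9 had an unadjusted p under it. The ratio rose by 1.94 without HS replicate 1 and fell by 0.46 without HS replicate 2, and the 5p arm rests on 1 to 13 reads a library.

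**Figure D3:**
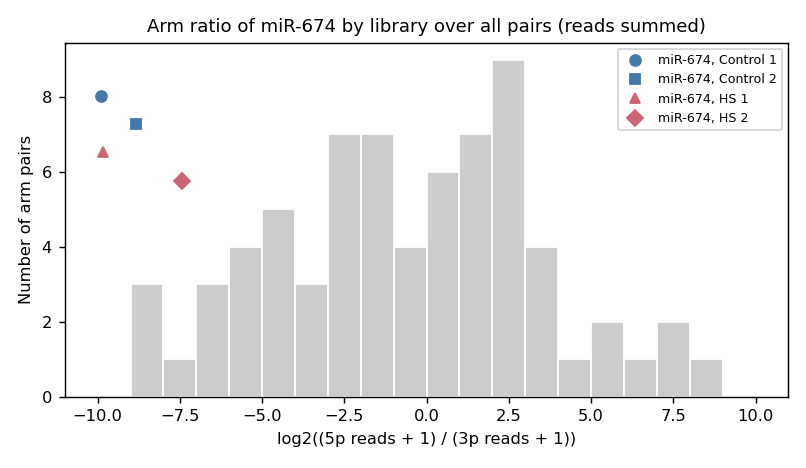
Histogram of log2((5p reads + 1)/(3p reads + 1)) over 70 miRNAs with at least 10 reads on each arm, reads summed over the 4 libraries (grey; y axis, number of pairs). The points give miR-674 in each library at arbitrary height (control in blue, HS in red), all far to the 3p side.

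To ask whether heat changed the level of the members, log2(normalized count + 1) was fitted with limma for both groups over the 376 miRNAs with at least 10 reads in all. All 4 members were tested. The differences of the 3 abundant members were positive, and 0 of the 4 members changed over 2-fold with an unadjusted p under 0.05, as 31 of the 376 (8.24%) did. After adjustment 0 of the 376 (0%) had a p under 0.05, where 31 had an unadjusted p under it, and edgeR and DESeq2 also gave 0 adjusted calls. With 2 libraries against 2, an exact permutation test could not go below a two-sided p of 0.333.

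MiR-1981-5p averaged 606 ± 176 normalized counts in control exosomes (SD, n = 2) and 1687 ± 1021 in HS exosomes (SD, n = 2), 2.78-fold higher. The log2 fold change of 1.36 (standard error 0.86, 95% interval -0.97 to 3.69, adjusted p = 0.621 from limma) ranked 45 of 376 from the top. Its 95% interval ran from a decrease to an increase. HS replicate 2 alone was 1.59-fold above the control mean, where the control libraries differed 1.52-fold. The log2 fold change was 0.70 without HS replicate 1 and 2.02 without HS replicate 2. On recovered reads, in edgeR's quasi-likelihood test and in DESeq2, it was past the same fold and p (log2 fold changes 1.38 and 1.48, adjusted p = 0.508 and 0.611). These tests called 32 (8.51%) and 29 (7.71%) of the 376.

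MiR-5099 averaged 695 ± 392 normalized counts in control exosomes (SD, n = 2) and 1922 ± 1697 in HS exosomes (SD, n = 2). The log2 fold change of 1.23 (standard error 1.09, 95% interval -1.71 to 4.18, adjusted p = 0.645 from limma) rested on HS replicate 1. Without that library it was 0.18, and without HS replicate 2 it was 2.29. It was 0.63 without control replicate 1 and 1.84 without control replicate 2, so the control libraries weighed on it as well. It was among the 32 of 376 (8.51%) called by the quasi-likelihood test (log2 fold change 1.32, adjusted p = 0.508) and not among the 29 (7.71%) of DESeq2.

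MiR-674-3p averaged 1738 ± 186 normalized counts in control exosomes (SD, n = 2) and 3018 ± 1984 in HS exosomes (SD, n = 2). The log2 fold change came to 0.62 (standard error 0.87, 95% interval -1.72 to 2.97, adjusted p = 0.768 from limma). Without HS replicate 1 the direction turned, to -0.10, and without HS replicate 2 it was 1.35. MiR-674-5p, whose log2 fold change was 1.01 (standard error 0.97, 95% interval -1.61 to 3.64, adjusted p = 0.674), had 2.11 ± 1.81 (SD, n = 2) and 5.52 ± 4.39 (SD, n = 2) normalized counts in the control and HS groups. With 1 and 5 against 1 and 13 reads the groups overlapped, and it passed the minimum of 10 reads mainly through HS replicate 2, so its direction is not counted with the others.

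**Figure D4:**
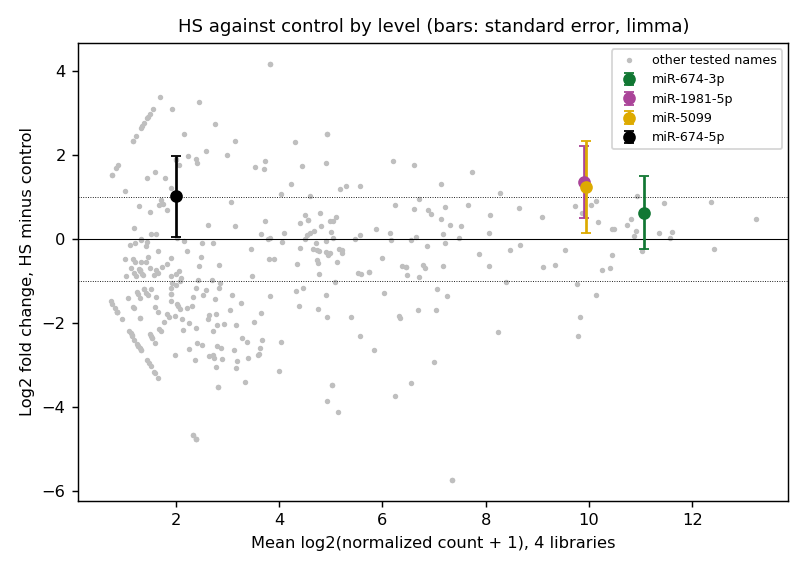
Log2 fold change of HS minus control (y axis) against mean log2(normalized count + 1) over the 4 libraries (x axis) for 376 tested miRNAs, with the 4 members in colour, their standard errors as bars and 2-fold lines dotted. MiR-1981-5p is highest of the members at 1.36, and the bar of miR-674-3p reaches below 0.

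The directions were read against a shift of the whole table. The median log2 fold change of the 376 miRNAs was -0.65 with the deposited size factors, -0.72 when libraries were scaled by their listed reads and -0.63 with TMM, and 130, 121 and 133 miRNAs were above 0. The 3 abundant members were above 0 under each of these scalings, all of which keep HS replicate 1. Among 49 miRNAs with at least 1000 reads the median was 0.06, and for 9 of the 49, miR-1981-5p included, the HS libraries lay above the control libraries without overlap. The median of the 376 was -0.17 without HS replicate 1 and -1.38 without HS replicate 2. Without HS replicate 1, miR-674-3p was at -0.10, miR-5099 at 0.18 and miR-1981-5p at 0.70.

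For miR-5099 and miR-674-3p the HS libraries differed from each other by more than the groups did, by 2.11 and 1.45 on the log2 scale, and for miR-1981-5p by about as much, at 1.32. Over 157 miRNAs with at least 100 reads, 67 were higher in HS replicate 1 than in HS replicate 2, and 27 were more than 2-fold higher. MiR-5099 was the 9th of the 157 in this respect, miR-674-3p the 15th and miR-1981-5p the 20th. Against the control mean, HS replicate 1 was higher by 2.17 (miR-5099), 1.99 (miR-1981-5p) and 1.35 (miR-674-3p) on the log2 scale, and HS replicate 2 by 0.05, 0.67 and -0.11 in the same order. The low depth of HS replicate 1 and its low share of stromal and myeloid miRNAs move with these values, and their part in the result was not tested. A lower amount of other miRNAs and a higher amount of these members cannot be told apart in shares of a library.

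**Figure D5:**
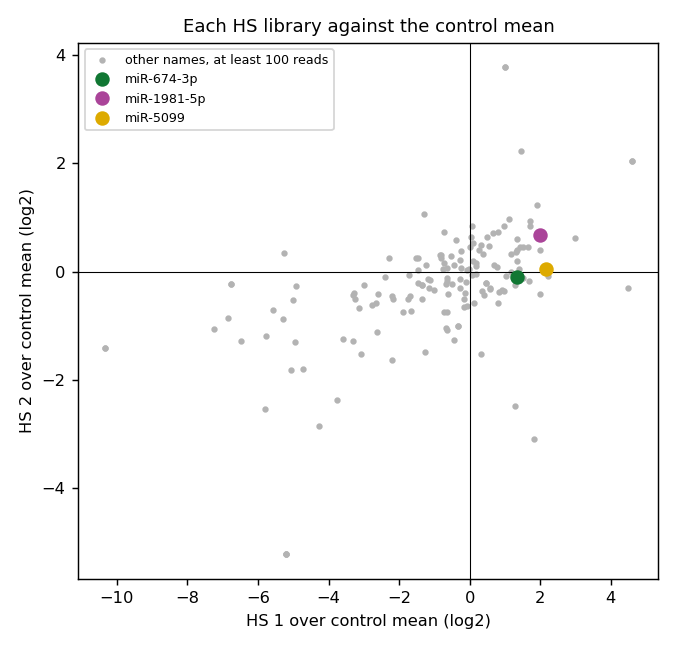
Log2 ratio of HS replicate 1 (x axis) and HS replicate 2 (y axis) to the control mean for 157 miRNAs with at least 100 reads. The 3 abundant members lie to the right, at 1.35 to 2.17 for HS replicate 1, and between -0.11 and 0.67 for HS replicate 2.

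The base composition of a miRNA also moved with the comparison. Over the 131 miRNAs with at least 100 reads and a sequence in the table, which share libraries and depth, the Spearman correlation of G and C content with the HS to control difference was 0.501, with the HS replicate 2 to control difference 0.463 and with the HS replicate 1 to HS replicate 2 difference 0.288. MiR-1981-5p holds 58.3% G and C, miR-674-5p 54.5% and miR-674-3p 50%, against a median of 47.8%. MiR-674-5p, with 20 reads, is not among the 131. For the mature miR-5099 no sequence was at hand. Its hairpin holds 37.8% G and C, against 57.0% for that of miR-674 and 53.7% for that of miR-1981. The part of base composition in the members' differences was not tested.

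The miRNAs most like each member over the 4 libraries, by the root mean square difference of centred log2 values among names with at least 100 reads, differed from member to member. For miR-674-3p they were miR-342-5p (0.033), the conserved miR-423-3p (0.140) and miR-5128 (0.142). MiR-342-5p was read 112 and 155 times in control exosomes and 101 and 140 times in HS exosomes, fewer by more than 10-fold but in nearly the same proportions. For miR-1981-5p they were miR-151-3p (0.198), let-7b-5p (0.283) and miR-1964-3p (0.285), and for miR-5099 miR-365-2-5p (0.251), miR-669c-5p (0.281) and miR-5126 (0.349). The nearest to miR-674-5p were miR-106b-3p (0.456), miR-28a-3p (0.516) and miR-2137 (0.580). With 4 libraries such likeness is a description only.

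As a mirtron by its coordinates, miR-1981 was compared with the other hairpins that fill an annotated intron exactly. With Mir1981 itself, such hairpins numbered 16 of 1005 in the RefSeq table (1.59%), and 12 of their 30 mature names were listed. These 12 names had 4519 reads in all, of which miR-1981-5p held 4104, or 90.8%. MiR-1981-5p was chosen by its read level and this set was added after the values were seen, so its lead is a description only. The next were the arms of miR-877 from Abcf1, a gene of a translation factor, with 186 reads for miR-877-3p and 171 for miR-877-5p. The other 9 had 15 reads or fewer. Of the 12, 6 had at least 10 reads and were tested, and the median of the 12 was 7.5 reads. In normalized counts miR-877-3p had 39.3 and 43.4 in control exosomes against 16.9 and 45.1 in HS exosomes, lowest in HS replicate 1, where miR-1981-5p was highest. MiR-877-5p had 25.9 and 55.6 against 36.3 and 28.5, without such a low. In HS replicate 1, the shallowest library, these values rest on 7 reads of miR-877-3p and 15 of miR-877-5p.

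MiR-1981 and miR-5099 carry 4-digit numbers, which were given to later entries of the miRNA registry. Of the 189 other listed names numbered 1000 or more, 86 were tested, 21 had at least 100 reads, and the median was 8.0 reads in all, against 29.0 for the 410 other names with lower numbers. Only miR-1198-5p among the 189 reached 1000 reads. It was read 728 and 1368 times in control exosomes and 715 and 1152 times in HS exosomes, followed miR-1981-5p in mean rank (28 against 27), and its HS mean was 1.62-fold its control mean, or 0.995-fold without HS replicate 1. The 189 names together held 2.20% and 2.62% of the reads in control exosomes, against 4.84% and 3.15% in HS exosomes. Of the 86 tested, 52 had a positive log2 fold change, with a median of 0.47 against -0.65 for all 376. Over 2-fold with an unadjusted p under 0.05, 5 of the 86 were upregulated and 6 downregulated, against 6 and 25 of all 376. None of the 86 had an adjusted p under 0.05 in limma, where 11 had an unadjusted p under it. Without HS replicate 2 the median was 0.84 for the 86 and -1.38 for all 376. Without HS replicate 1 the medians were 0.18 and -0.17. In that fit, where the lone HS library is assumed to vary like the control libraries, 13 of the 86 were upregulated and 6 downregulated, against 16 and 18 of all 376.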

How the data were processed

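Small RNA from BV2 exosomes was sequenced in 2 control and 2 HS libraries. Per the methods, adapters, reads of low quality and very short reads were removed and the clean reads were mapped by bowtie. The genome build is not given in the sources used here. The signal deposited by the authors, headed RPKM, is reads per miRNA divided by 1 size factor per library: 100% of values above 0 were whole multiples of the smallest (tolerance 0.01 reads), which gave the reads by division.

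HS and control libraries were compared by limma 3.58.1 (R 4.3.3) on log2(value + 1), without a block, over names with at least 10 reads in all, with Benjamini-Hochberg adjustment. Arm ratios were fitted likewise. Script functions were tested on simulated counts, with larger changes than those of the members and the same spread in every library. That run does not measure how the fits do on these libraries. Alternatives were pseudocounts, filters, scalings, a mean-variance trend, a replicate block, edgeR 4.0.16, DESeq2 1.42.0 and leaving out each library. Members, lists and tests were chosen with earlier results of these data known. The names given are the members, the 3 names most like each, their neighbours in rank, names numbered 1000 or more and names sharing a seed. Names from hairpins that fill an intron, miR-1198-5p, miR-423 and miR-151 were added after the values were seen. Sequences are from RefSeq (GRCm38.p6), loci from GENCODE M21, folds from RNAfold 2.7.2. The table held 81.6% of the tested names.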

Additional observations from a re-analysis of the deposited data

How the results depend on the processing

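The log2 fold changes of miR-1981-5p and miR-5099 were positive under all 14 alternatives, between 0.70 and 2.02 and between 0.18 and 2.29. Those of miR-674-5p, which rest on few reads, lay between 0.27 and 1.76 under 13. That of miR-674-3p was positive under 13 of 14 and ranged from -0.10 (without HS replicate 1) to 1.35. By a change over 2-fold with an unadjusted p under 0.05, miR-1981-5p was altered only with edgeR's quasi-likelihood test (1.38) and DESeq2 (1.48), and miR-5099 only with the former (1.32). These tests called 32 and 29 of the 376 miRNAs, or 8.51% and 7.71%. Adjusted p-values of the members ranged from 0.164 to 0.993. The 31 altered miRNAs became 16 with a pseudocount of 5, 12 with edgeR's filterByExpr, which removed miR-674-5p, 19 with the replicate number as a block, and 26 to 113 when 1 library was left out, 113 without HS replicate 2. The 9 altered arm pairs became 2 with a pseudocount of 5, 2 with at least 50 reads on each arm, which removed miR-674, and 1 to 20 without 1 library. The arm ratio change of miR-674 ranged from -0.46 to 1.94 without 1 library. With 1 library left out, the lone library is assumed to vary like the other group. The causes were not tested. The replicate block changed no call of a member, and same-numbered libraries deviated together with a correlation of -0.097 over 376 miRNAs, so the numbers are not taken as pairs. The difference of miR-1981-3p and the arm ratio of miR-1981 were not run, since that arm was not listed. Counts of 1 library alone and the fold of miR-1198-5p without HS replicate 1 were chosen after seeing the data. So were the medians of the 4-digit names without HS replicate 1 and without HS replicate 2. Depth limits miR-674-5p above all, at 1 to 13 reads.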
